A study of Homo sapiens with 16 samples.

Results

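Nuclear genes for the subunits of the mitochondrial respiratory chain and ATP synthase were followed through all 8 conditions of an RNA-seq experiment in KG-1 cells, a human acute myeloid leukemia line. Members were the protein-coding genes of the counts table whose GENCODE v44 symbol begins with NDUFA, NDUFB, NDUFC, NDUFS or NDUFV and a digit, is SDHA, SDHB, SDHC or SDHD, or begins with UQCR, with COX and a digit from 4 to 8, or with ATP5F, ATP5M or ATP5P. The rule took 88 of 43836 genes, of which 38 belonged to complex I, 4 to complex II, 9 to complex III, 18 to complex IV and 19 to complex V. NDUFA4 was counted with complex IV, where its protein is found. CYC1, CYCS, NDUFAB1, ATP5IF1 and DMAC2L act in the chain but carry symbols outside the rule, and they were followed as a separate list.

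Cells had been stably transduced with lentiviral particles, either pLKO.1-puro Non-Target shRNA (Control) or FOXM1-shRNA (FOXM1-KD), so that every library, controls included, came from transduced KG-1 cells selected with 4 µg/mL puromycin. Control cells received DMSO vehicle (0.3%, 48 h), the FOXM1 inhibitor STL427944 (50 µM, 48 h), the BCL2 inhibitor venetoclax (100 nM, 48 h), the nucleoside analog cytarabine (AraC, 0.75 µM, 48 h) or the AKT inhibitor MK-2206 (30 µM, 24 h). FOXM1-KD cells received DMSO, AraC or venetoclax at the same doses for 48 h. Each of the 8 groups held 2 libraries, described as biological replicates, and MK-2206 at 24 h was set against DMSO at 48 h since no other vehicle group was analysed here.

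Complex I passes electrons from NADH to ubiquinone and complex II passes them from succinate, complex III hands them to cytochrome c, and complex IV hands them to oxygen. Complexes I, III and IV pump protons, and complex V, the ATP synthase, uses the proton gradient to turn its c ring and stalk and so to make ATP in its F1 head. Most subunits are encoded in the nucleus and a few core ones in mitochondrial DNA (mtDNA), and AML cells are known for their reliance on this pathway.

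Libraries held 7351755 to 21362546 counts, the 2 MK-2206 libraries being the smallest. FOXM1, the targeted gene, stood at 140.0 and 138 CPM (counts scaled to the same library total) in Control DMSO libraries and at 48.8 and 81.8 in FOXM1-KD DMSO libraries. It stood at 181 and 156 and 121 and 114 CPM in the same order under AraC, and at 121 and 127 and 50.6 and 57 under venetoclax. FOXM1 was therefore lower in every FOXM1-KD library than in its matched Control libraries, by 2.11-fold, 1.47-fold and 2.3-fold (adjusted p = 0.056, 0.0124 and 0.0113, edgeR), and MK-2206 libraries held 21.7 and 19.8 CPM. The libraries were less uniform than their labels. In a check for mixed-up samples, 8 of 16 libraries did not match the vehicle controls. CD34, a surface antigen that KG-1 cells carry, had 12483 to 28951 counts in the 8 Control libraries without MK-2206 but 7 and 18 in MK-2206 libraries and 0 to 4 in FOXM1-KD libraries. MPO, a granule enzyme of myeloid precursors, went the other way, from 12.5 CPM or less in those 8 libraries to 555 and 396 in MK-2206 and at least 1520.3 CPM in FOXM1-KD libraries. The 5 monocyte markers summed to 28.8 to 227 CPM in those 8 libraries, 17.9 and 18.7 in MK-2206, and 552 to 2716 in FOXM1-KD libraries. The 5 lymphoid markers summed to 5.75 to 14.3, 3.14 and 2.43, and 0.179 to 2.18 CPM in the same order. Every value below for the libraries labelled FOXM1-KD or MK-2206 rests on libraries that stand apart in this way, so none can be given without them. Whether they hold the same cell line as the other Control libraries was not tested beyond these values, and in this design a difference in cell identity cannot be told apart from the knockdown or from MK-2206. In bulk RNA, fewer cells of a type and less transcript per cell cannot be told apart either.

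Of the 88 members, 79 had a mean of at least 10 counts over the 16 libraries, and list medians below are over these 79. The 9 others were COX4I2, COX6A2, COX6B2, COX7A1, COX7B2 and COX8C, tissue-restricted partners of ubiquitous complex IV subunits, with ATP5MGL and the readthroughs NDUFC2-KCTD14 and ATP5MF-PTCD1. COX4I2 and COX6A2 had 0 counts in all 16 libraries and no other of the 9 exceeded 13 counts in any. The ubiquitous forms COX4I1, COX6A1, COX6B1, COX7A2, COX7B and COX8A stood at 141 and 143, 52 and 60.6, 149 and 151, 109.7 and 116, 51.4 and 51.9, and 54.7 and 63.1 CPM in the Control DMSO libraries. Per kilobase of the canonical transcript, Control DMSO means ran from 307 CPM for COX6B1 and 244 for COX7A2, both complex IV, down to 1.51 for NDUFA4L2 among the 79. In FOXM1-KD DMSO libraries the order per kilobase was led by the ATP synthase genes ATP5F1B and ATP5MC2, at 462 and 460.4 CPM, against 169.7 and 186 in Control. Because 49 members have pseudogenes named after them and 36 are overlapped by another gene on their strand, reads of near-identical copies may have been split, and UQCRHL, a retrocopy of UQCRH, is uncertain for this reason.

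Summed over complexes, nuclear transcripts of all 5 complexes had their lowest group mean under MK-2206 and their highest in a FOXM1-KD group. In complexes II and V alone, every FOXM1-KD library lay above every Control library. Both MK-2206 libraries lay below all others for complexes I, II and IV, whereas the second STL427944 library lay below the second MK-2206 library for complexes III and V. Complex V stood at 2217 and 2325 summed CPM in Control DMSO libraries, 995 and 1162 under MK-2206, and 2879 and 4163, 2718 and 2475, and 4000.2 and 3669 in FOXM1-KD libraries with DMSO, AraC and venetoclax. All 6 FOXM1-KD libraries lay above all 10 Control libraries for complex V. Complex II stood at 293 and 307 in Control DMSO, 144 and 149.9 under MK-2206, and 418 and 502 in FOXM1-KD DMSO, again with no FOXM1-KD library among the Control ones. Complex IV did not separate in this way, with 1105 and 1189 summed CPM in Control DMSO against 845 and 1295 in FOXM1-KD DMSO. Replicates of 3 groups were far apart. The second STL427944 library held 3609 summed CPM over all members against 6276 in the first, the first Control venetoclax library held 4314 against 5977 in the second, and the first FOXM1-KD DMSO library held 6366 against 8960 in the second.

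**Figure D1:**
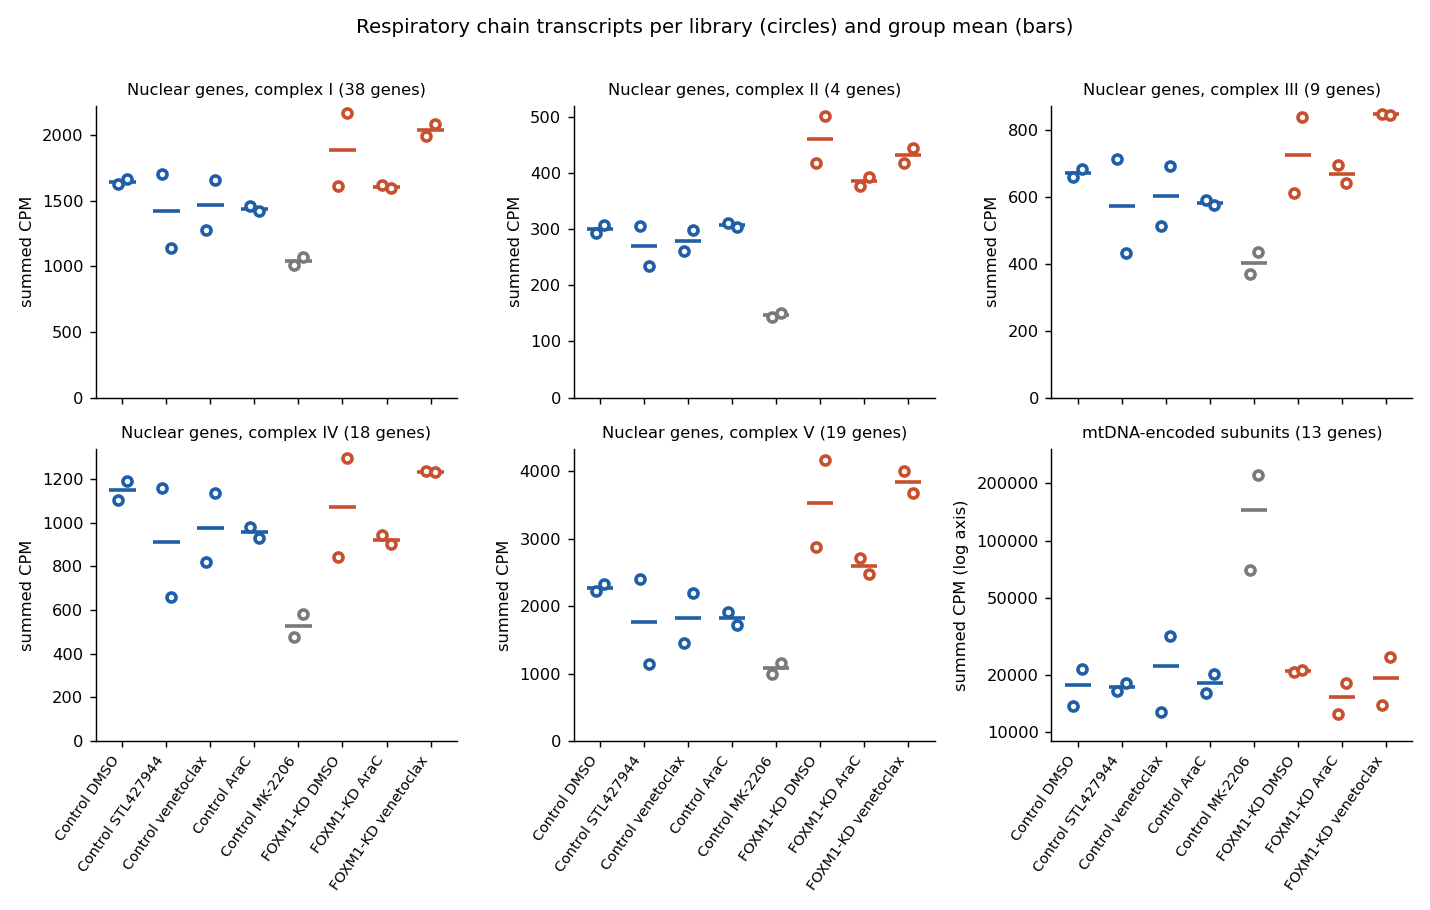
Summed CPM (vertical axes, linear from 0 except the last panel, which is logarithmic) of the nuclear genes of complexes I to V and of the 13 mtDNA-encoded subunits, for each of 16 libraries (circles) with the mean of the 2 libraries of a group (bars). Blue marks Control without MK-2206, grey MK-2206 and red FOXM1-KD. Both MK-2206 libraries are lowest in complexes I, II and IV and highest for mtDNA, and FOXM1-KD libraries are highest in complexes II and V.

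Many chain genes were lower in MK-2206 libraries than in Control DMSO libraries while a small group was higher. All 4 treatments of Control cells were compared with the same 2 DMSO libraries. A gene was called when it changed 2-fold or more at an adjusted p below 0.1, and by that rule 31 of 85 members tested fell and 9 rose, where 44% of all 28905 genes were called, 17.9% lower and 26% higher. At an adjusted p below 0.1 alone, 47 members fell and 9 rose, where 21.9% and 28.8% of all genes did. The higher calls numbered 2 and 4 without the first and without the second Control DMSO library and 3 without the first MK-2206 library, and lower calls numbered 24 to 35 with any of the 4 libraries left out. The median log2 fold change was -0.78 for the 79 members and -0.29 for 12577 protein-coding genes, a difference of -0.49. Scaling shifts all genes of a library alike, so this difference could hardly change with it. The median of the members was -1.01 on total counts alone, with 40 called lower and 6 higher. It was -0.68 with DESeq2's size factors, with 27 called lower and 9 higher. By complex, 12 genes fell and 5 rose of 37 in complex I, 2 and 0 of 4 in complex II, 4 and 0 of 9 in complex III, 6 and 2 of 16 in complex IV, and 7 and 2 of 19 in complex V.

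The steepest falls under MK-2206 were in accessory and stalk subunits. NDUFC2, a membrane arm subunit of complex I (chr11:78068297-78079862, minus strand), went from 33.7 and 38.8 CPM to 1.14 and 3.47 (log2 fold change -3.85 ± 0.37, adjusted p = 3.91e-24). NDUFA8, a subunit of complex I on the intermembrane side (chr9:122144058-122159779, minus strand), went from 41.4 and 44.9 to 3.43 and 3.7 CPM (log2 fold change -3.52 ± 0.35, adjusted p = 1.05e-22). These values left no overlap between groups, and the errors are standard errors with 2 libraries a group, tested with edgeR's quasi-likelihood test. ATP5F1C, the gamma subunit that forms the rotor shaft of ATP synthase, fell from 170.3 and 185 to 21.4 and 34.6 CPM (log2 fold change -2.59 ± 0.29, adjusted p = 5.08e-18), COX6C of complex IV from 149 and 174 to 21.7 and 30.9 (log2 fold change -2.55 ± 0.29, adjusted p = 2.58e-17), and NDUFB9 of complex I from 104 and 121 to 15.7 and 14.9 (log2 fold change -2.81 ± 0.30, adjusted p = 3.64e-19). SDHD, a membrane anchor of complex II, fell from 36.1 and 38.8 to 7.57 and 8.67 CPM (log2 fold change -2.13 ± 0.32, adjusted p = 1.78e-10). NDUFC2-KCTD14 shares exons with NDUFC2 and had 0 counts in these libraries.

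Genes called higher under MK-2206 lay in complexes I, IV and V, in the counts by complex given above. NDUFA4L2, a hypoxia-inducible relative of NDUFA4 that was counted here with complex I, rose from 1.53 and 1.32 to 9.57 and 8.21 CPM (log2 fold change 2.70 ± 0.42, adjusted p = 1.11e-09). NDUFA13, a complex I subunit also known as GRIM-19 (chr19:19515736-19529054, plus strand), rose from 4.28 and 3.19 to 30.3 and 15.4 CPM (log2 fold change 2.67 ± 0.34, adjusted p = 9.03e-14), with the 2 MK-2206 libraries themselves apart, and its locus is overlapped on the same strand by YJEFN3. NDUFV2, an iron-sulfur subunit of the NADH-oxidizing arm, rose from 11.1 and 10.5 to 22.6 and 25.9 CPM (log2 fold change 1.24 ± 0.31, adjusted p = 0.000273). NDUFA2, NDUFB2 and ATP5ME rose by 1.09, 1.04 and 1.11 on the log2 scale. The other 3 called genes, COX6B2, COX7A1 and ATP5MF-PTCD1, had at most 12 counts in a library. COX6B2 and COX7A1 had 0 counts in both Control DMSO libraries. Set against a floor of 3 counts in each, their MK-2206 group means were at least 2.79-fold and 3.47-fold higher. COX7A1 had 8 counts in 1 MK-2206 library and 0 in the other, so its value is no bound for each library.

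Several catalytic and core subunits were also lower under MK-2206. NDUFS1, which carries iron-sulfur clusters of complex I, fell by 1.02 on the log2 scale, UQCRFS1, the Rieske protein of complex III, by 1.48, and ATP5F1A, the alpha subunit of F1, by 1.41. The NDUFS1 value was -0.92 in DESeq2 and -0.86 after filterByExpr, under 2-fold in each. NDUFV1, the NADH-binding subunit, passed the test at -0.87 ± 0.27 without reaching 2-fold, as did COX4I1, SDHA and the catalytic beta subunit ATP5F1B at -0.91 ± 0.27, -0.62 ± 0.28 and -0.61 ± 0.26. SDHB, the iron-sulfur subunit of complex II, and UQCRC1, a core protein of complex III, did not pass, at -0.38 ± 0.29 and -0.39 ± 0.27.

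Against the fall of nuclear subunits, all 13 mtDNA-encoded subunits were called higher under MK-2206, with a median log2 fold change of 2.71. Their summed level was 13676 and 21513 CPM in Control DMSO libraries and 70119 and 219385 under MK-2206, so no library overlapped although the 2 MK-2206 libraries differed more from each other than the DMSO libraries did. mtDNA genes took 6.68% and 18.4% of all counts there, against 1.32% to 3.05% in the other 14 libraries. Without the second MK-2206 library 4 of the 13 were called, with a median of 1.22. Cytochrome c, the soluble carrier encoded by the nuclear gene CYCS, rose from 95.5 and 98.9 to 222 and 441 CPM (log2 fold change 1.85 ± 0.27, adjusted p = 2.96e-11), while CYC1, the cytochrome c1 of complex III, fell (log2 fold change -1.43 ± 0.27, adjusted p = 7.04e-07). Of 78 mitochondrial ribosomal protein genes 32 fell and 4 rose by the call (median -0.72), and of 86 cytosolic ribosomal protein genes 4 fell and 33 rose (median 0.77). Of 53 assembly factors of the complexes 19 fell and 2 rose, and of 13 tricarboxylic acid cycle enzymes 3 fell and none rose at 2-fold.

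**Figure D2:**
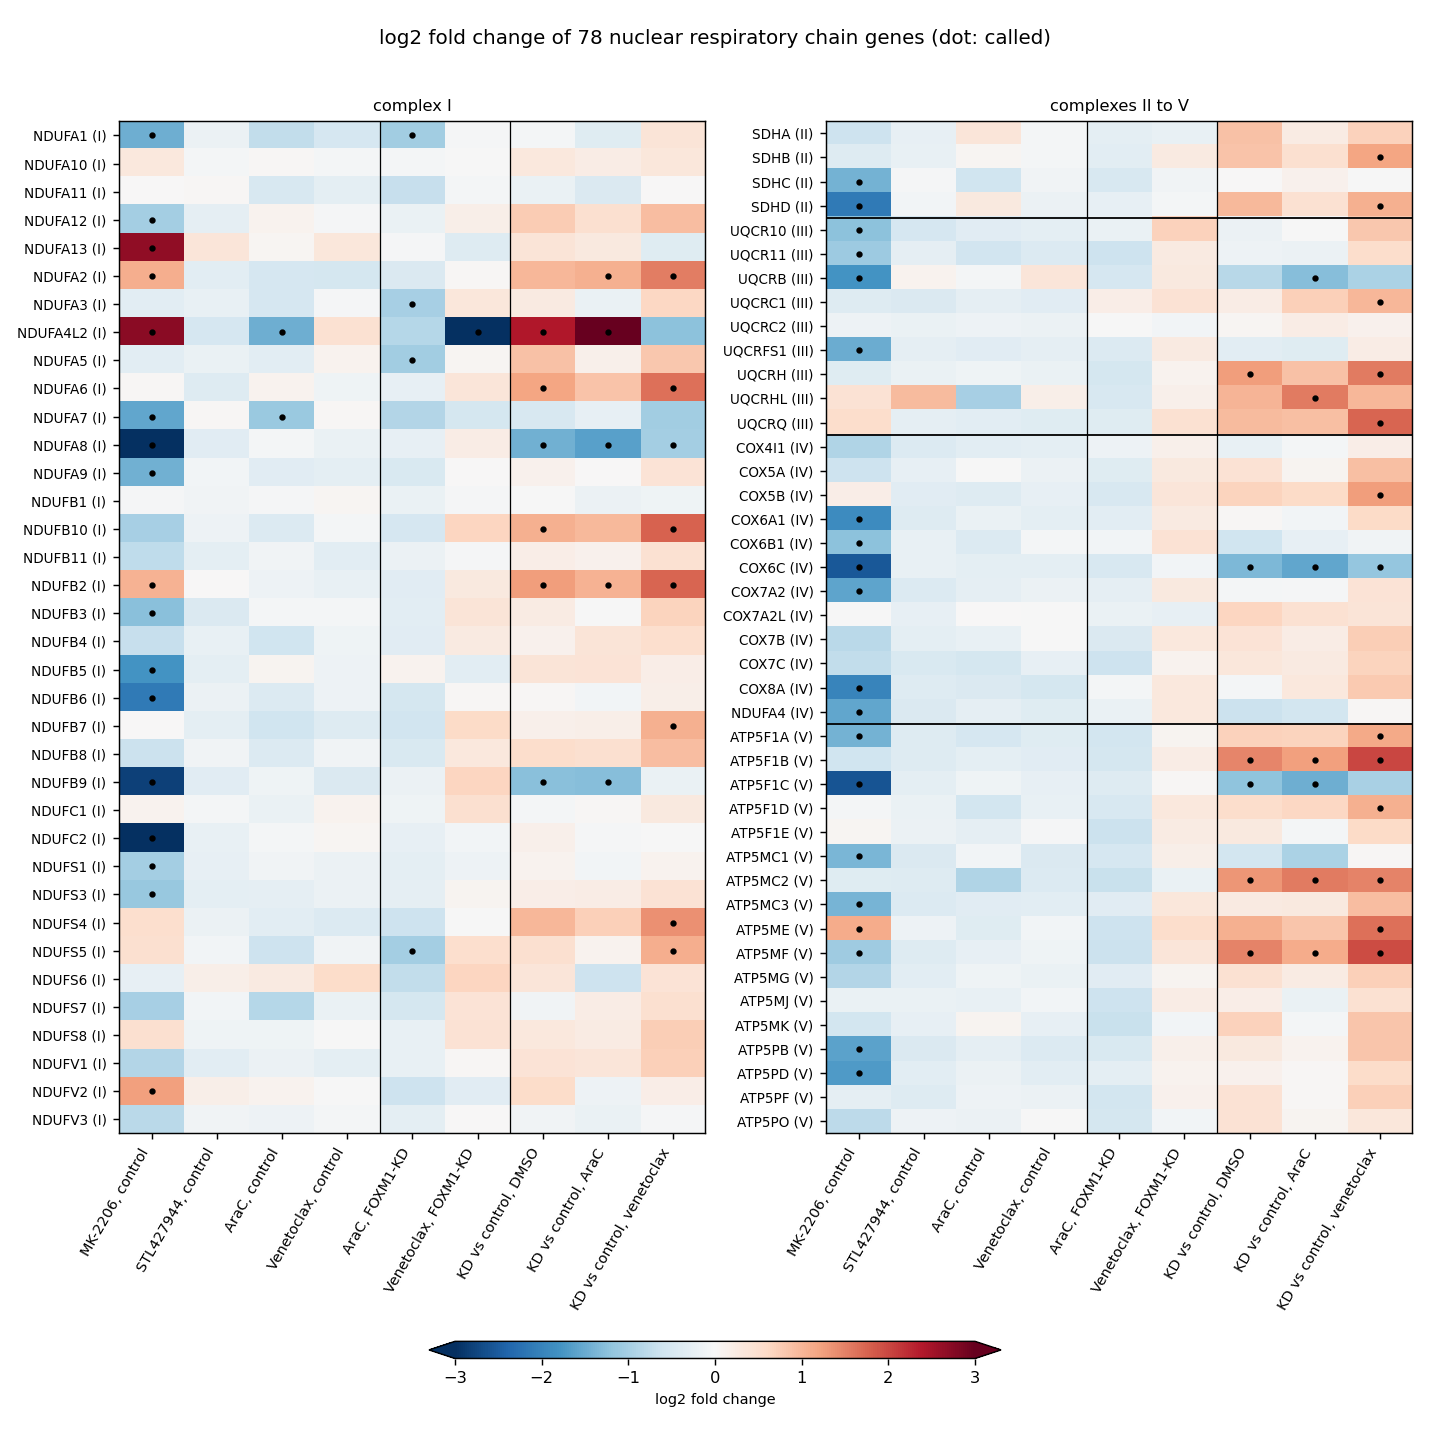
log2 fold change (color, blue lower and red higher, limited to 3 on either side) of 78 members in 9 comparisons, with the complex in parentheses and a dot where the gene was called. The first column, MK-2206, is mostly blue with NDUFA13 and NDUFA4L2 red, the last 3 columns, FOXM1-KD against Control, are mostly pale red, with dots at ATP5F1B, ATP5MC2 and ATP5MF in all 3, and the columns of STL427944 and venetoclax in Control hold no dot.

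FOXM1 knockdown was compared with Control under 3 treatments that use 12 separate libraries. All come from stably transduced cells, and separate transductions for the treatments are not described. Agreement between the 3 comparisons may therefore not be independent. Under DMSO, 4 of 84 members were called lower and 8 higher, where 25.1% of all genes were called (13.7% lower, 11.3% higher). Under AraC 5 of 82 were lower and 7 higher, where 29.3% were called (14% lower, 15.2% higher), and under venetoclax 2 of 83 were lower and 19 higher, where 24.3% were called (13.5% lower, 10.8% higher). The share of members called was thus below the background under DMSO and AraC and close to it under venetoclax. Medians of the members were 0.30, 0.16 and 0.56 in this order, and those of protein-coding genes were 0.02, -0.03 and 0.02. Of the 79 members, 58, 50 and 66 were above 0. The DMSO median came to -0.00302 without the second FOXM1-KD DMSO library, and the AraC and venetoclax medians stayed above 0 with any library left out.

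Calls in the DMSO and venetoclax comparisons depended on single libraries. Without the first or the second Control DMSO library the DMSO comparison called 2 or 3 members, and without the first FOXM1-KD DMSO library it called 18. ATP5F1B, ATP5MF, COX6C and NDUFA8 lost their DMSO calls without the first and also without the second Control DMSO library, while their log2 fold changes kept their sign. In this order of libraries these were 1.44 and 1.47 for ATP5F1B and 1.29 and 1.74 for ATP5MF. They were -1.45 and -1.24 for COX6C and -1.49 and -1.38 for NDUFA8. Under venetoclax, 11 and 13 members were called without the first and without the second FOXM1-KD library, and 31 without the second Control library. Under AraC the count stayed between 11 and 14. AraC and venetoclax libraries carry paired replicate numbers, and with the replicate number as a block 51 members passed an adjusted p of 0.1 under AraC in place of 30, and 50 in place of 26 under venetoclax, with 12 and 19 called. Of all genes, 52% and 36.4% passed with the block (28.2% and 24.8% called) and 43.3% and 26.1% without it.

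The 12 members that passed higher in all 3 FOXM1-KD comparisons lay in complexes I, II, III and V. Their share was near that of all genes, given below, so the absence of complex IV members is not read as a result. ATP5F1B, ATP5MC2, ATP5MF and NDUFB2 were called higher in all 3, where 8.11% of the 21172 genes tested in all 3 were, and COX6C and NDUFA8 were called lower in all 3, where 10.1% were. At an adjusted p below 0.1 alone, 12 of 82 members were higher in all 3 (background 10.3%) and 4 were lower (12.9%). The 6 FOXM1-KD libraries lay entirely above the 6 Control libraries for 20 members, against 10.8% of 28010 genes, and entirely below for ATP5F1C, COX6C and NDUFA8, against 11.9%. In complex II, SDHB and SDHD passed higher in all 3 comparisons.

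ATP5F1B encodes the catalytic beta subunit of the F1 head (chr12:56638175-56645984, minus strand). It stood at 295 and 302 CPM in Control DMSO, 280.2 and 212 in Control AraC, and 233 and 233 in Control venetoclax libraries. FOXM1-KD libraries held 645 and 980.2, 658 and 536, and 1023 and 848 CPM in the same order. The lowest FOXM1-KD library was above the highest Control library, and the changes were 1.46 ± 0.24, 1.24 ± 0.17 and 2.01 ± 0.35 on the log2 scale (edgeR adjusted p = 0.0171, 2.69e-12 and 1.48e-07). Its partner in the head, ATP5F1A, passed the test in all 3 with smaller changes of 0.69 ± 0.19, 0.67 ± 0.16 and 1.14 ± 0.33. The venetoclax call of ATP5F1A depended on single libraries, and its value was 0.85 without the first Control venetoclax library.

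ATP5F1C, which encodes the gamma shaft inside the same head (chr10:7788147-7807815, plus strand), moved the other way. It stood at 170.3 and 185, 163 and 163, and 115 and 184 CPM in Control libraries with DMSO, AraC and venetoclax. In FOXM1-KD libraries it stood at 66.5 and 85, 58 and 64, and 70.2 and 82.2 CPM. The groups did not overlap, and the log2 fold changes were -1.22 ± 0.17, -1.46 ± 0.20 and -0.97 ± 0.38 (adjusted p = 0.0108, 9.32e-12 and 0.0479, edgeR), the last of them under 2-fold. Counts of ATP5F1B over those of ATP5F1C were 1.26 to 2.02 in the 8 Control libraries without MK-2206, 8.38 to 14.6 in FOXM1-KD libraries, and 8.23 and 5.72 in MK-2206 libraries.

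The c ring, the rotor that protons turn, is built from a protein that ATP5MC1, ATP5MC2 and ATP5MC3 all encode, each with its own import sequence. ATP5MC2 (chr12:53632726-53677408, minus strand) stood at 114 and 121, 65.5 and 62.2, and 71.8 and 105 CPM in Control libraries with DMSO, AraC and venetoclax, and at 273 and 309, 212 and 173, and 256 and 242 in FOXM1-KD libraries. Its log2 fold changes were 1.32 ± 0.12, 1.55 ± 0.20 and 1.50 ± 0.37 (edgeR adjusted p = 0.00429, 1.47e-13 and 0.000517). ATP5MC1 (chr17:48892765-48895871, plus strand) had log2 fold changes of -0.54 ± 0.36, -0.95 ± 0.22 and 0.04 ± 0.39, of which the AraC value alone passed. As a share of the summed counts of the 3 genes, ATP5MC1 was 20.9% to 31.3% in the 8 Control libraries without MK-2206 and 8.91% to 12.5% in FOXM1-KD libraries. ATP5MC2 was 20% to 36.7% and 40.9% to 57.4% in the same libraries. MK-2206 libraries held 21.6% and 15.2% of ATP5MC1 and 41.2% and 51.7% of ATP5MC2.

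**Figure D3:**
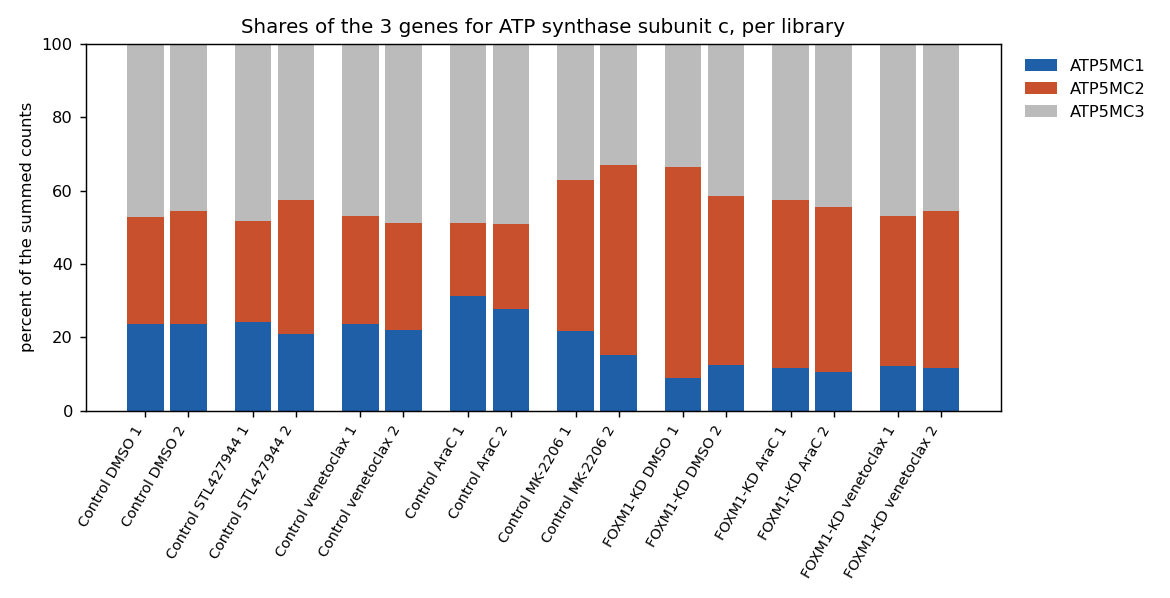
Percent of the summed counts of ATP5MC1 (blue), ATP5MC2 (red) and ATP5MC3 (grey) that each gene took, 1 bar for each of 16 libraries. The blue part is at most 12.5% in the 6 FOXM1-KD libraries and at least 20.9% in the 8 Control libraries without MK-2206.

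ATP5MF, the f subunit of the membrane sector (chr7:99448475-99466186, minus strand), stood at 22.3 and 30.7, 21.9 and 23.3, and 16.1 and 32.2 CPM in Control libraries with DMSO, AraC and venetoclax, and at 52.7 and 95.2, 52 and 48.1, and 94.2 and 94 CPM in FOXM1-KD libraries. Its log2 fold changes were 1.50 ± 0.36, 1.10 ± 0.23 and 1.96 ± 0.41 (edgeR adjusted p = 0.0467, 1.12e-05 and 1.91e-05). The groups did not overlap under any of the 3 treatments, and the locus overlaps PTCD1 on the same strand. NDUFB2, an accessory subunit of the membrane arm of complex I (chr7:140690777-140722790, plus strand), stood at 12.4 and 13.7 CPM in Control DMSO and 22.6 and 38.6 in FOXM1-KD DMSO libraries, with log2 fold changes of 1.24 ± 0.31, 1.05 ± 0.24 and 1.74 ± 0.44 under DMSO, AraC and venetoclax. NDUFB10 and NDUFA6, accessory subunits of complex I, and UQCRH, the hinge protein of complex III, passed higher in all 3 comparisons and were called in those with DMSO and venetoclax. The DMSO calls of NDUFB10 and UQCRH depended on single libraries. NDUFB10 came to 0.73 on the log2 scale, under 2-fold, without the second FOXM1-KD DMSO library. UQCRH went from 61.6 and 70.2 to 134 and 180.2 CPM under DMSO.

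NDUFA8 (chr9:122144058-122159779, minus strand) and COX6C (chr8:99873200-99893707, minus strand) were the members called lower in all 3. NDUFA8 stood at 41.4 and 44.9, 42.9 and 40.8, and 28.8 and 45.7 CPM in Control libraries with DMSO, AraC and venetoclax, and at 12.1 and 19.5, 13 and 14.9, and 18 and 18.6 in FOXM1-KD libraries. COX6C, a small regulatory subunit of complex IV, stood at 149 and 174, 137 and 132, and 88.6 and 172 CPM and at 49.1 and 76.4, 43.5 and 50.7, and 49.3 and 67.5 CPM. Log2 fold changes under the 3 treatments were -1.44 ± 0.27, -1.62 ± 0.24 and -1.03 ± 0.43 for NDUFA8 (edgeR adjusted p = 0.0246, 1.51e-10 and 0.0671). They were -1.35 ± 0.26, -1.55 ± 0.21 and -1.16 ± 0.39 for COX6C (adjusted p = 0.0258, 1.99e-12 and 0.015). The venetoclax calls of both genes were lost when either FOXM1-KD venetoclax library or the second Control one was left out, at an adjusted p of 0.360 to 0.457 for NDUFA8 and 0.104 to 0.475 for COX6C. With the replicate number as a block NDUFA8 stood just under 2-fold at -0.99.

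COX6C lies on chromosome 8, as do NDUFB9 of complex I (chr8:124539101-124580648, plus strand) and UQCRB of complex III (chr8:96222947-96235546, minus strand), and all 3 passed lower in FOXM1-KD libraries under DMSO and AraC, with log2 fold changes under DMSO of -1.35 ± 0.26, -1.25 ± 0.29 and -0.84 ± 0.12. NDUFB9 did not pass under venetoclax, at -0.20 ± 0.39. Protein-coding genes of chromosome 8 with a mean of at least 10 counts, 433 of them, had medians of -1.12, -1.06 and -1.08 in the 3 knockdown comparisons, and 430 tested under MK-2206 had a median of -1.39. Without the 3 chromosome 8 members, 2 members were called lower under DMSO, NDUFA8 and ATP5F1C, and 8 higher. NDUFA8 lies on chromosome 9 and ATP5F1C on chromosome 10.

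**Figure D4:**
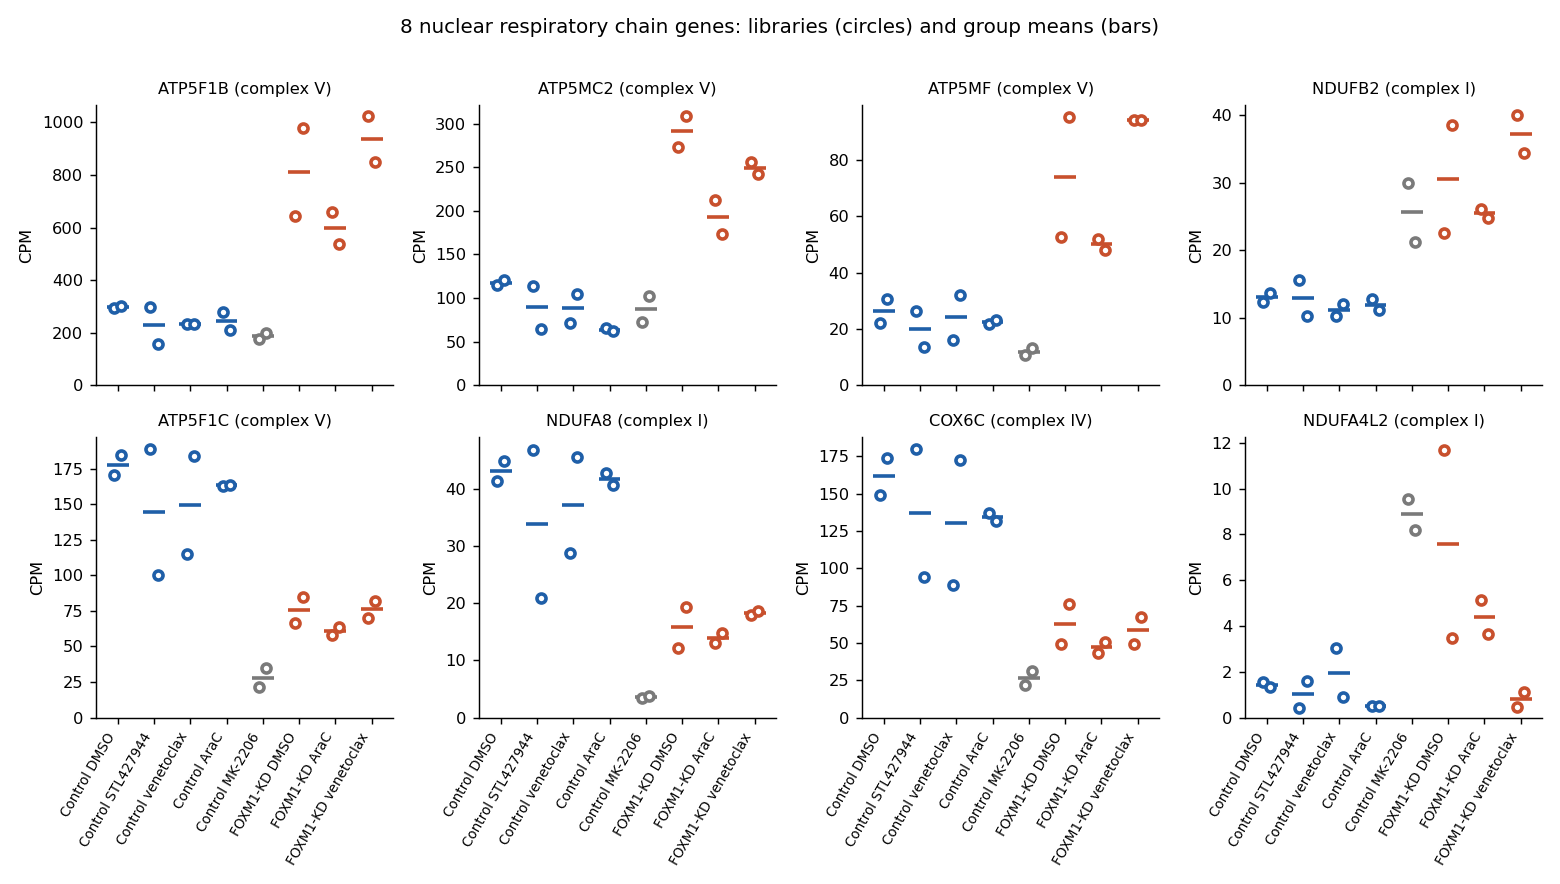
CPM (vertical axes, from 0) of 8 members in each library (circles) with the group mean (bars), blue for Control, grey for MK-2206 and red for FOXM1-KD. ATP5F1B, ATP5MC2, ATP5MF and NDUFB2 are higher in all FOXM1-KD libraries than in any Control library with the same treatments, ATP5F1C, NDUFA8 and COX6C are lower, and NDUFA4L2 is low in both FOXM1-KD venetoclax libraries.

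Upstream sequences were read for members that moved together, since genes for the chain are known to share binding sites for NRF1, ETS factors such as GABPA, and YY1. RefSeq windows of 300 bases (250 before the start and 50 after it, GRCh38.p14) were at hand for 69 of the 88 members. The NRF1 letters, GCGCA, any base and GCGC, which overlap themselves on the other strand, occurred on either strand in 24.6% of these windows and in 8.64% of 15246 protein-coding windows. The ETS letters CCGGAAG occurred in 29% and 14.4%, the YY1 letters AANATGGCG in 23.2% and 4.93%, and the CCAAT letters of NFY in 34.8% and 36.5%. Of the 12 members higher in all 3 knockdown comparisons, 10 had a window, and 1 held the NRF1 letters, 3 the ETS letters and 3 the YY1 letters. Of the 4 members lower in all 3, 2 had a window, NDUFA8 and ATP5F1C, and both held the NRF1 letters and no other motif. The stretches below are the longest run before each RefSeq start that no annotated exon covers, with matches to any of the 4 motifs in capitals. They show ATP5MC1 and ATP5MC2 of the c ring, then UQCRH and SDHB, higher in all 3, then NDUFA8 and ATP5F1C, lower. ATP5MC2 was called higher in all 3, whereas ATP5MC1 passed under AraC alone, lower.
ATP5MC1 (chr17:48892678-48892764, plus strand): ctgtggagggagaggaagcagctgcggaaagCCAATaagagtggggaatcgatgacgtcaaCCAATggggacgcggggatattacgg
ATP5MC2 (chr12:53676084-53676175, minus strand): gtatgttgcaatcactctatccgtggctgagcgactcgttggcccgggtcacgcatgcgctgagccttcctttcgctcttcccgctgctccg
UQCRH (chr1:46303617-46303697, plus strand): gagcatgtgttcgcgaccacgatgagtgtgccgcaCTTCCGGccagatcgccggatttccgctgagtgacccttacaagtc
SDHB (chr1:17054033-17054282, minus strand): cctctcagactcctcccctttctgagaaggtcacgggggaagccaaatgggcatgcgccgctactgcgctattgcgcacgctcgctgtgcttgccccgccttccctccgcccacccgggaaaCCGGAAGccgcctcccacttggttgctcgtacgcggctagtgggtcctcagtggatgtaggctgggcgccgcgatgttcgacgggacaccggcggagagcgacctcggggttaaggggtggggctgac
NDUFA8 (chr9:122159780-122159907, minus strand): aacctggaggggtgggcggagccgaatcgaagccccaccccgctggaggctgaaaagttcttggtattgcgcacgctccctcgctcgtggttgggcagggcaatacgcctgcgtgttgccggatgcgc
ATP5F1C (chr10:7787994-7788146, plus strand): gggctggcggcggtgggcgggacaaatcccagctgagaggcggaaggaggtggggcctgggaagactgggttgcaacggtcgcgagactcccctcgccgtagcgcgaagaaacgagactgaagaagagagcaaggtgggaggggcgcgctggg
ATP5MC1 held 2 CCAAT matches in the stretch shown, at 78 and 48 bases before the start, and ATP5MC2 held no match. UQCRH and SDHB each held 1 ETS match, and NDUFA8 and ATP5F1C held none in the stretches shown. The NRF1 match of ATP5F1C, 22 bases before the start, lay in an annotated exon, and that of NDUFA8 began 4 bases before the start and ran across it. A match is a run of letters and not a measured site.

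AraC was compared with DMSO in both cell states, and most members were lower in each, few of them by 2-fold. In Control, 2 of 82 members were called lower and none higher, where 6.69% of all genes were called (2.17% lower). At an adjusted p below 0.1, 21 members passed lower and 1 higher, where 9.17% and 10.2% of genes did. The median was -0.26 against 0.01 for protein-coding genes, with 67 of 79 members below 0. The called genes were NDUFA4L2, from 1.53 and 1.32 to 0.517 and 0.523 CPM (log2 fold change -1.46 ± 0.41, adjusted p = 0.0219), and NDUFA7, an accessory subunit of complex I, from 3.34 and 3.3 to 1.6 and 1.52 CPM (log2 fold change -1.10 ± 0.27, adjusted p = 0.0115). Without either Control AraC library, or in a fit of all 16 libraries, neither was called. ATP5MC2 passed without reaching 2-fold, from 114 and 121 to 65.5 and 62.2 CPM (log2 fold change -0.90 ± 0.13, adjusted p = 0.000195), and SDHA was the member that passed higher, at 0.36 ± 0.12.

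In FOXM1-KD cells 4 of 84 members were called lower with AraC, where 11.6% of genes were called (2.57% lower), and 6 passed an adjusted p of 0.1, all lower, where 5.44% of genes passed lower. All 4 called genes are accessory subunits of complex I. NDUFA1 went from 26.4 and 39.1 CPM in FOXM1-KD DMSO to 14.6 and 18.8 with AraC (log2 fold change -1.05 ± 0.30, adjusted p = 0.00733), NDUFA5 from 50.5 and 54.1 to 18.8 and 34.7 (log2 fold change -1.04 ± 0.29, adjusted p = 0.00461), NDUFS5 from 16.9 and 35.1 to 12.2 and 15.1 (log2 fold change -1.01 ± 0.31, adjusted p = 0.0133), and NDUFA3 from 25.7 and 41.2 to 17 and 18.2 (log2 fold change -1.00 ± 0.30, adjusted p = 0.011). Groups did not overlap for these genes. No member was called when libraries were scaled on total counts alone, in a fit of all 16 libraries, or without either FOXM1-KD AraC library, and 1 and 7 were called without the second and without the first FOXM1-KD DMSO library. The median over 79 members was -0.42 against -0.01 for protein-coding genes, and 77 were below 0. It was -0.10 without the second FOXM1-KD DMSO library. Cytosolic ribosomal protein genes had medians of -0.57 in Control and -0.66 in FOXM1-KD cells, with 71 of 85 and 54 of 83 lower at an adjusted p below 0.1.

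The AraC response of the nuclear members was not shown to differ between FOXM1-KD and Control. An interaction test in edgeR over 8 libraries called 0 of 84 members, where 5.13% of genes were called, with 5 members at an unadjusted p below 0.05. Its median over the members was -0.03, and 2 members were called without the first FOXM1-KD DMSO or the second FOXM1-KD AraC library. Outside the rule, CYCS was called in this edgeR interaction test (log2 difference -1.03 ± 0.26, adjusted p = 0.00393). It passed higher with AraC in Control (0.48 ± 0.14) and lower in FOXM1-KD cells (-0.64 ± 0.26). CYC1, NDUFAB1, ATP5IF1 and DMAC2L did not pass the interaction test. mtDNA-encoded subunits differed in the same test, 11 of 13 passing lower in FOXM1-KD at an adjusted p below 0.1, where 1.91% of genes passed lower. Their median change with AraC was 0.06 in Control and -1.00 in FOXM1-KD cells. Summed levels were 13676 and 21513 CPM in Control DMSO and 16129 and 20071 in Control AraC libraries, and 20702 and 21182 and 12454 and 18189.5 in the FOXM1-KD libraries. The Control libraries overlapped and the FOXM1-KD libraries did not. Within FOXM1-KD cells 11 of the 13 passed lower with AraC, and none did without either FOXM1-KD AraC library. In the interaction test none of the 13 passed without the first Control DMSO, the second Control AraC or the first FOXM1-KD AraC library, and 1 passed without the first Control AraC library.

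**Figure D5:**
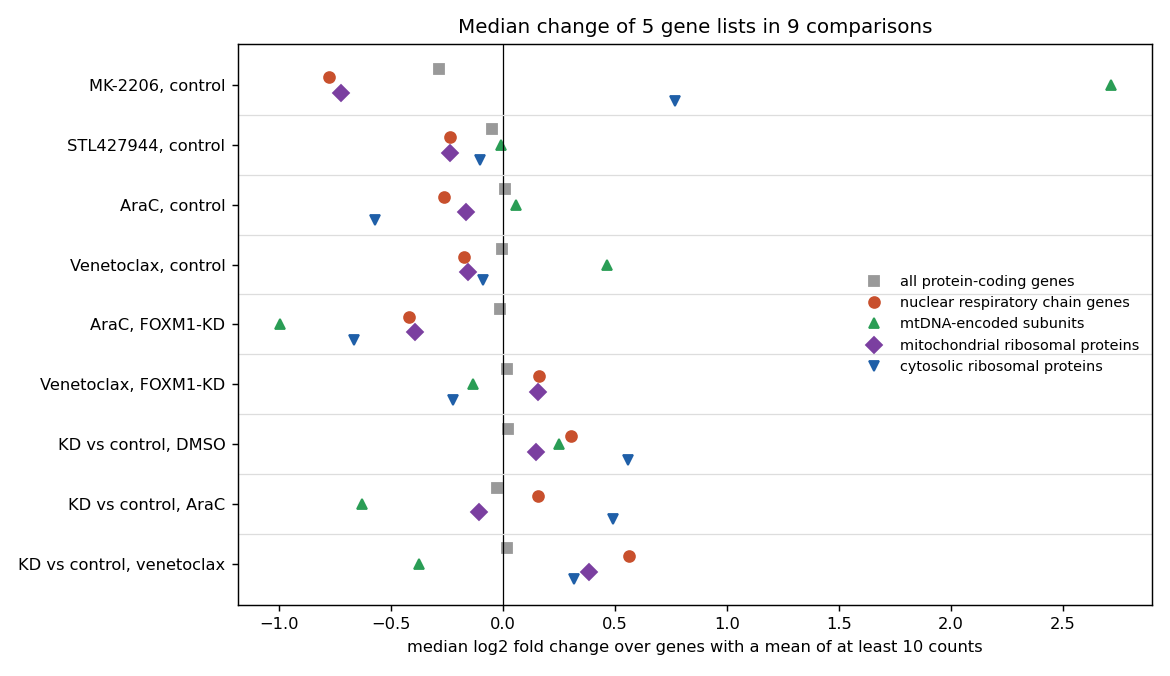
Median log2 fold change (horizontal axis) of 5 gene lists in 9 comparisons, over genes with a mean of at least 10 counts. Nuclear respiratory chain genes (circles) and mitochondrial ribosomal protein genes (diamonds) are at -0.78 and -0.72 under MK-2206, where mtDNA-encoded subunits (triangles pointing up) are at 2.71 and cytosolic ribosomal protein genes (triangles pointing down) at 0.77.

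Venetoclax and STL427944 gave no call among members in Control cells. edgeR called 0 of 82 members in each comparison, where 0% of all genes were called, and 0 members had an unadjusted p below 0.05, against 188 genes for venetoclax and 281 for STL427944. DESeq2 likewise called 0 members, with 0 and 1 genes in all. Medians over members were -0.17 for venetoclax and -0.24 for STL427944, with 69 and 71 of 79 members below 0. These values rested on the libraries that stood apart from their replicates. Without the first STL427944 library the median was -0.70, and without the second it was 0.07. Without the first venetoclax library the median was -0.04, and without the second it was -0.44.

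In FOXM1-KD cells NDUFA4L2 was the 1 of 85 members called with venetoclax, where 2.09% of genes were called (0.578% lower). NDUFA4L2 (chr12:57234903-57240715, minus strand) stood at 11.7 and 3.48 CPM in FOXM1-KD DMSO and 0.478 and 1.13 in FOXM1-KD venetoclax libraries (log2 fold change -3.18 ± 0.50, adjusted p = 1.08e-07), and at 1.53 and 1.32 and 3.02 and 0.878 CPM in the Control libraries, where it did not pass (log2 fold change 0.45 ± 0.63, adjusted p = 1). The difference between the responses was -3.63 ± 0.73 on the log2 scale (edgeR interaction, adjusted p = 0.00043), where 0.743% of genes were called (0.261% lower). That call was lost without the first FOXM1-KD DMSO library or any of the 4 venetoclax libraries, and the call within FOXM1-KD cells without the first DMSO or either venetoclax library. NDUFA4L2 was called higher in FOXM1-KD than in Control cells under DMSO (log2 fold change 2.41 ± 0.68, adjusted p = 0.0678) and AraC (log2 fold change 3.02 ± 0.38, adjusted p = 1.21e-14), the former lost without either Control DMSO library, and was lower without passing under venetoclax (log2 fold change -1.24 ± 0.67, adjusted p = 0.206). Its locus overlaps SHMT2 on the opposite strand, and SHMT2 was itself called higher in all 3 knockdown comparisons, at 1.39 ± 0.15, 1.52 ± 0.19 and 1.00 ± 0.37, and under MK-2206 at 1.13 ± 0.26. NDUFA4, by contrast, passed in one knockdown comparison, AraC, at -0.54 ± 0.21.

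Results for catalytic, core and other named subunits outside complex V were mixed in FOXM1-KD against Control. NDUFV1, NDUFS1 and COX4I1 did not pass in any of the 3 comparisons, with log2 fold changes of 0.42, 0.37 and 0.72 for NDUFV1, 0.10, -0.09 and 0.11 for NDUFS1, and -0.23, -0.05 and 0.19 for COX4I1. UQCRFS1 did not pass either. UQCRC1 was higher under AraC (0.71 ± 0.20) and venetoclax (1.00 ± 0.38), the latter not past the threshold when any 1 of the 4 venetoclax libraries was left out (edgeR adjusted p = 0.103 to 0.521), and SDHA, the flavoprotein of complex II, under DMSO (0.89 ± 0.11). SDHB went from 42.1 and 46.4 CPM in Control DMSO to 60.6 and 97.6 in FOXM1-KD DMSO libraries and passed under each treatment, at 0.85 ± 0.27, 0.47 ± 0.22 and 1.18 ± 0.40. Under venetoclax it did not pass without the first Control or either FOXM1-KD library (adjusted p = 0.113 to 0.264, edgeR). COX7A2L, which promotes supercomplexes of complexes III and IV, passed higher under DMSO and AraC, at 0.64 ± 0.10 and 0.45 ± 0.21.

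Other genes of the pathway gave mixed counts in FOXM1-KD against Control. Of 53 or 54 assembly factors, 7, 9 and 5 were called lower and 2, 1 and 2 higher under DMSO, AraC and venetoclax, with the 4 factors of complex V at medians of -0.67, -0.58 and -0.82. Of 13 tricarboxylic acid cycle enzymes, none was called lower and 3, 1 and 3 were called higher. mtDNA-encoded subunits had medians of 0.25, -0.63 and -0.37, with 0, 12 and 2 lower at an adjusted p below 0.1. The venetoclax median was 1.06 without the second Control venetoclax library, with 8 passing higher. DMAC2L, the coupling factor also known as ATP synthase factor B, was called lower in all 3, at -1.25 ± 0.12, -1.33 ± 0.24 and -1.98 ± 0.43. CYCS was called higher under DMSO and venetoclax, at 1.05 ± 0.17 and 1.20 ± 0.37, and did not pass under AraC, at -0.05 ± 0.20. CYC1, NDUFAB1 and ATP5IF1 did not pass in any of the 3.

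Among regulators of mitochondrial biogenesis, PPARGC1B, a coactivator of the PGC-1 family, stood at 41.4 and 42.4 CPM in Control DMSO, 10.7 and 9.94 in MK-2206, and 98.2 and 130.3 in FOXM1-KD DMSO libraries. It was called lower under MK-2206 (log2 fold change -1.95 ± 0.31, adjusted p = 2.58e-09) and higher in FOXM1-KD libraries under DMSO (log2 fold change 1.46 ± 0.18, adjusted p = 0.00874) and venetoclax (log2 fold change 1.42 ± 0.39, adjusted p = 0.0021), and passed under AraC at 0.64 ± 0.22. ESRRA, the nuclear receptor ERR alpha that PGC-1 proteins activate, was called higher in FOXM1-KD libraries under DMSO and venetoclax, at 1.24 ± 0.11 and 1.56 ± 0.41, passed under AraC at 0.95 ± 0.23, and did not pass under MK-2206, at 0.41 ± 0.29. TFAM, which packages mtDNA and drives its transcription, fell from 112 and 118 to 35.4 and 44.6 CPM under MK-2206 (log2 fold change -1.45 ± 0.28, adjusted p = 1.36e-06), in the libraries where mtDNA transcripts were highest. NRF1 was called lower under AraC in Control (log2 fold change -1.10 ± 0.17, adjusted p = 0.000344) and GABPA, an ETS factor, passed lower under MK-2206 at -0.82 ± 0.29. Other regulators were higher under MK-2206. POLG, the mtDNA polymerase, was called higher (log2 fold change 2.17 ± 0.26, adjusted p = 1.79e-15), and NRF1 and GABPB1, the partner of GABPA, passed at 0.59 ± 0.29 and 0.86 ± 0.27. POLRMT, the mitochondrial RNA polymerase, passed lower at -0.91 ± 0.28, and the summed level of the 14 regulators was 121% of that in Control DMSO libraries. PPARGC1A had 0 counts in the 8 Control libraries without MK-2206 and at most 6 counts in any library.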

How the data were processed

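Total RNA from 16 libraries was sequenced after ribosomal RNA depletion. The labels and the study's methods name different library kits. The authors deposited 1 table of raw counts per gene, made with STAR and featureCounts on hg38 according to the submitters' processing notes; versions are not given in the sources used here. Strand handling is not stated, so overlapping genes may share reads.

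Counts were tested with edgeR 4.0.16 (R 4.3.3; TMM, quasi-likelihood test, Benjamini-Hochberg over all genes holding 1 count or more in the 4 libraries compared). A call required a 2-fold change and an adjusted p below 0.1. The standard error was the log2 fold change divided by the root of F. CPM used TMM-scaled totals of all 16 libraries. Medians are over genes with a mean of at least 10 counts. DESeq2 1.42.0, other scalings, filterByExpr, all libraries in 1 fit and leaving out each library were alternatives. The code was tested on simulated data. P-values rest on 2 libraries a group. edgeR draws the variance of each gene toward that of other genes, so p-values and standard errors do not measure that gene's own spread alone.

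The replicate numbers in the labels of MK-2206, AraC and venetoclax paired the samples: deviations of same-numbered libraries correlated at 0.415 to 0.689 over 11818 genes in all 10 pairs of groups. DMSO and STL427944 libraries carry no number, and first and second are names only.

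Genes, coordinates (GRCh38) and canonical lengths came from GENCODE 44, and upstream windows from RefSeq. Members and lists were chosen with earlier results of these data known. Named genes were FOXM1, the 3 largest changes each way in a comparison among called members holding 10 counts or more in each of its libraries, catalytic and core subunits, isoform pairs and 6 regulators. NDUFC2, SDHD, NDUFA2, NDUFA6, NDUFB2, NDUFA3, ATP5ME, SHMT2, POLG, GABPB1, POLRMT, CD34, MPO, the low-count calls and the proteins outside the rule were named after their values were seen. Values of 1 member are not reported here, so the color map of members shows 78.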

Additional observations from a re-analysis of the deposited data

Results flagged for a closer look

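In the fit of all 8 libraries, the venetoclax response of NDUFA4L2 differed between FOXM1-KD and Control cells, at low counts. FOXM1-KD libraries held 221 and 66 counts with DMSO and 7 and 19 with venetoclax. Control libraries held 28 and 24 with DMSO and 47 and 18 with venetoclax. The interaction was -3.63 ± 0.73 on the log2 scale (edgeR's quasi-likelihood test over 8 libraries, adjusted p = 0.00043), with both FOXM1-KD venetoclax libraries below both FOXM1-KD DMSO libraries and the Control libraries overlapping. The interaction was not past the threshold without the first FOXM1-KD DMSO library (adjusted p = 0.305), the first or second Control venetoclax library (1.00 and 0.164) or the first or second FOXM1-KD venetoclax library (1.00 and 0.827), and its value then ranged from -4.39 to -2.49.

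The AraC response of mtDNA-encoded subunits differed between FOXM1-KD and Control cells for 11 of 13 genes at an adjusted p below 0.1 (edgeR, median difference -0.91). Without the first Control DMSO, the second Control AraC or the first FOXM1-KD AraC library 0 passed, with medians of -0.55, -0.74 and -0.64, and without the first Control AraC library 1 passed. With any of the other 4 libraries left out, 10 to 12 passed.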

How the results depend on the processing

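No named gene past the threshold changed sign under any alternative, but list medians did with 1 library left out. The median of the members turned to 0.068 for STL427944 without its second library, to -0.00302 for FOXM1-KD against Control under DMSO without the second FOXM1-KD library, and to -0.082 for venetoclax in FOXM1-KD cells without the first FOXM1-KD DMSO library. The median of mtDNA-encoded subunits for FOXM1-KD against Control under venetoclax, -0.37 with 2 passing lower, turned to 1.06 with 8 passing higher without the second Control library and to 0.17 without the first FOXM1-KD library. With total counts only, the median of the members under MK-2206 was -1.01, that of FOXM1-KD against Control under AraC was 0.23, and 0 members were called for AraC in FOXM1-KD cells. In a fit of all 16 libraries 0 members were called for AraC in Control and 0 for AraC in FOXM1-KD cells, and DESeq2 called 1 for AraC in Control. Without a minimum fold, 22 members passed for AraC in Control, where 4433 of 22842 genes did. For FOXM1-KD against Control, 23 members passed under DMSO, where 8734 of 23274 genes did, and 30 under AraC, where 10679 of 24653 did.

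With 1 library left out, the members called ranged from 28 to 41 for MK-2206, 0 to 10 for STL427944, 0 to 2 for AraC in Control, 2 to 18, 11 to 14 and 11 to 31 for FOXM1-KD against Control under DMSO, AraC and venetoclax, 0 to 7 for AraC and 0 to 1 for venetoclax in FOXM1-KD cells, and 0 to 2 and 0 to 1 for the AraC and venetoclax interactions. Medians ranged from -0.84 to -0.66 for MK-2206, -0.70 to 0.068 for STL427944, -0.30 to -0.20 for AraC and -0.44 to -0.04 for venetoclax in Control, -0.00302 to 0.48, 0.15 to 0.18 and 0.34 to 0.86 for FOXM1-KD against Control in the order above, and -0.65 to -0.10 and -0.082 to 0.44 for AraC and venetoclax in FOXM1-KD cells. A comparison then sets 1 library against 2, the lone library being assumed to vary like the others. Shares of all genes called in these fits are not given here. The causes of these shifts were not tested.

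With the replicate number as a block, 12 members were called in FOXM1-KD against Control under AraC and 19 under venetoclax, and 51 and 50 passed an adjusted p of 0.1, where 52% and 36.4% of all genes did. The block changed the call of NDUFA8 and of UQCRC1 under venetoclax, at -0.99 and 0.98, both just under 2-fold. Of named genes, 3663 of their values kept direction and side of the threshold, 97 lost it and 36 gained it. The MK-2206 libraries hold the fewest counts, 7351755 and 10330720, and genes with under 10 counts on average carry little information at any of these depths.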
